A study of Mus musculus with 36 samples.

Results

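Hepatic mRNA of 34 coagulation and fibrinolysis factors was examined in mice on a mild-high-fat diet, some of which received quercetin, a dietary flavonoid. The members are the factors of the contact, intrinsic, extrinsic and common branches of coagulation, fibrinogen and the B chain of factor XIII, the anticoagulants, the fibrinolytic system, von Willebrand factor and the enzymes of the vitamin K cycle. They were found by gene name on the array and have 52 of its 41174 probes. Of the 34 genes, 32 had an expressed probe, among 12990 expressed gene names of 27597 on the array. A probe was counted as expressed when its mean signal in both dyes exceeded 2 times the mean background. The genes were chosen by function, and the set was taken up because of measured values of these arrays, namely the difference of F11 between the mice killed at the start and the later groups. Differences from those mice are therefore a description, and nothing is read from how many of them pass a threshold, whereas quercetin-fed and control mice were compared with a test. For F11 that test is not independent of the choice of the set, since its values in the later groups were part of that choice.

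Coagulation is a cascade of plasma serine proteases and cofactors that ends in thrombin, which converts fibrinogen into fibrin. Hepatocytes secrete most of these proteins, while thrombomodulin, the endothelial protein C receptor, tissue plasminogen activator and von Willebrand factor are largely made by other cells, such as endothelium. Antithrombin, heparin cofactor II and the protein C system restrain thrombin, and plasmin dissolves fibrin. Fibrinogen is also an acute-phase protein, which the liver makes in larger amounts during inflammation.

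The samples were livers of 36 adult male C57BL/6J mice, in 3 groups of 12, each mouse on its own array. The study's methods give the substrain C57BL/6JOlaHsd. All mice received the diet with 30% of energy as fat during an adaptation phase, of 3 weeks according to the sample descriptions. The baseline group was killed at its end, at 0 weeks of intervention. The control group continued on that diet for 12 weeks, and the quercetin group received it for 12 weeks with quercetin added at 0.33% by weight. All were fasted for at least 2 h before they were killed. The baseline mice differ from both other groups in age and in time on the diet, which cannot be told apart. Values are log2 ratios of the Cy5 signal of a single mouse over the Cy3 signal of a pool of all samples, so a level is relative to that pool and levels of different genes are not comparable. Bulk liver RNA does not tell fewer cells of a type apart from less RNA per cell.

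Between 56.4% and 67.4% of spots were well above background in Cy5 on 35 arrays, and 96.7% on the array of quercetin replicate 2. Control replicate 5 carried RNA of pancreatic enzymes, with a mean log2 ratio of 4.82 over 7 such genes against group medians of -3.93 to -3.83. The hepatocyte markers were measured far above background, with Alb at 11393 and Apoa1 at 3716 times the background of Cy5. Baseline replicate 4 and quercetin replicate 4 had the highest Saa1, Saa2 and Saa3 (serum amyloid A) of their groups, with Saa1 at 1.76 and 1.97. Members whose difference between quercetin and control mice changed sign or clearly in size without one of these mice are given with and without it.

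At an adjusted p under 0.05 (limma, Benjamini-Hochberg over all expressed probes), 1 of 32 members differed between the quercetin and the control group, against a background of 3.26% of all genes tested (2.06% higher and 1.21% lower). That gene was F3, which encodes tissue factor, and its call was lost under several alternative settings. An unadjusted p under 0.05 was reached by 5 of 32 members and by 16.7% of all genes. Of the members, 14 had a higher mean and 18 a lower mean with quercetin. The median difference was -0.02, against -0.01 over all genes. The differences lay between -0.26 (F11) and 0.23 (F3), and 31 of 32 were within 0.25 log2 units of no difference, as were 95.4% of all genes. For no member were the 2 groups free of overlap, which held for 0.0154% of all genes.

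**Figure D1:**
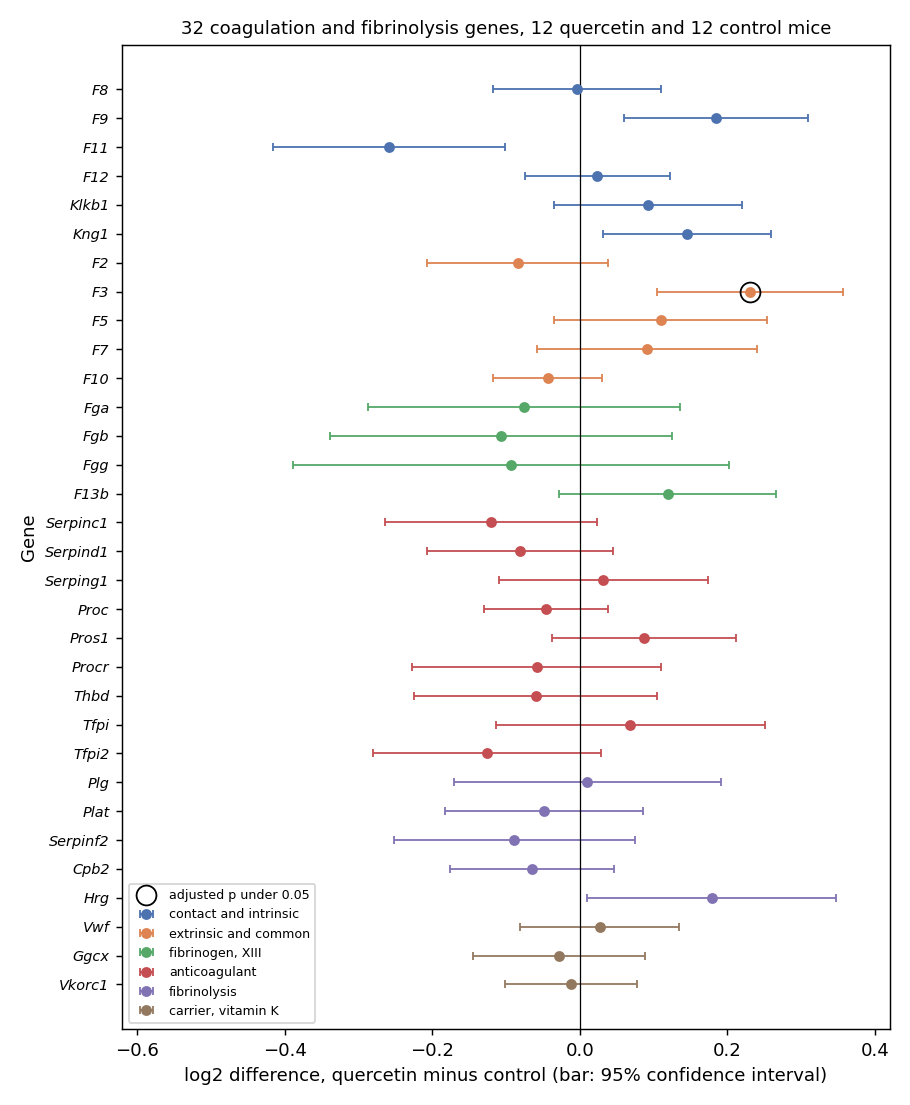
Log2 difference between the quercetin and the control group (x axis) for the 32 members with an expressed probe (y axis), 12 mice per group, coloured by branch. Bars are 95% confidence intervals of the limma fit, and the ring marks F3, the single member with an adjusted p under 0.05; 27 of the intervals include 0.

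In the contact and intrinsic branch, F11 encodes factor XI, the zymogen that thrombin and factor XIIa activate. Its probe lies at chr8:46740216-46740275 (mm8). Its log2 ratio ran from 0.40 to 0.63 in the baseline group, with a median of 0.48. In the control group it ran from -0.52 to 0.16 with a median of -0.17, and in the quercetin group from -0.68 to -0.14 with a median of -0.49. All 24 mice killed at 12 weeks lay below all baseline mice, whereas the control and quercetin groups overlapped. F11 was 0.26 log2 units lower in the quercetin than in the control group (95% confidence interval -0.42 to -0.10), a fold of 0.84, and did not pass the adjusted threshold (adjusted p = 0.058, limma). It was below the control median in 11 of 12 quercetin mice, and lower on 7 of the 9 slides that hold both groups. In the authors' processed table the difference was -0.31 and passed (adjusted p = 0.0426, limma). It passed too with all groups in one fit (adjusted p = 0.0237), with array weights (0.017) and after leaving out control replicate 1 (0.0281), 2 (0.0494) or 4 (0.0424), or quercetin replicate 3 (0.0366) or 12 (0.0357). In the other 31 of 39 alternatives F11 did not pass, with an adjusted p of up to 0.522. Over all 39 the difference kept its direction and lay between -0.84 and -0.23, the former with scale normalization between arrays.

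F9, which encodes factor IX, the protease that forms the tenase complex with factor VIII, had a difference of the opposite sign. Its log2 ratio was 0.16 to 0.60 (median 0.38) in the baseline group, -0.21 to 0.20 (median -0.05) in the control group and -0.16 to 0.48 (median 0.13) in the quercetin group. The 3 ranges overlapped, and 11 of 12 quercetin mice were above the control median. The quercetin group was 0.18 log2 units higher than the control group (95% confidence interval 0.06 to 0.31; adjusted p = 0.0922, limma), and the second F9 probe gave 0.14 (adjusted p = 0.219). Without quercetin replicate 10 the first probe passed (adjusted p = 0.0302), and without quercetin replicate 2 it was 0.18 (adjusted p = 0.134).

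Kng1 encodes kininogen, the cofactor that carries prekallikrein and factor XI, and its values were higher in 10 of 12 quercetin mice than the control median. The difference was 0.15 (95% confidence interval 0.03 to 0.26; adjusted p = 0.159, limma), and the second probe gave 0.19 (adjusted p = 0.0592). Kng2, a close paralog next to Kng1 on chromosome 16, differed by 0.19 (adjusted p = 0.0912), and the files do not show whether the probes tell the paralogs apart. The remaining members of the branch were near 0. Klkb1 (prekallikrein) differed by 0.09, F12 (factor XII, the start of the contact pathway) by 0.02 and F8 (the cofactor factor VIII) by -0.0040. Without quercetin replicate 2, F12 differed by 0.037 and F8 by 0.0021, and without control replicate 5, F8 differed by 0.0043.

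**Figure D2:**
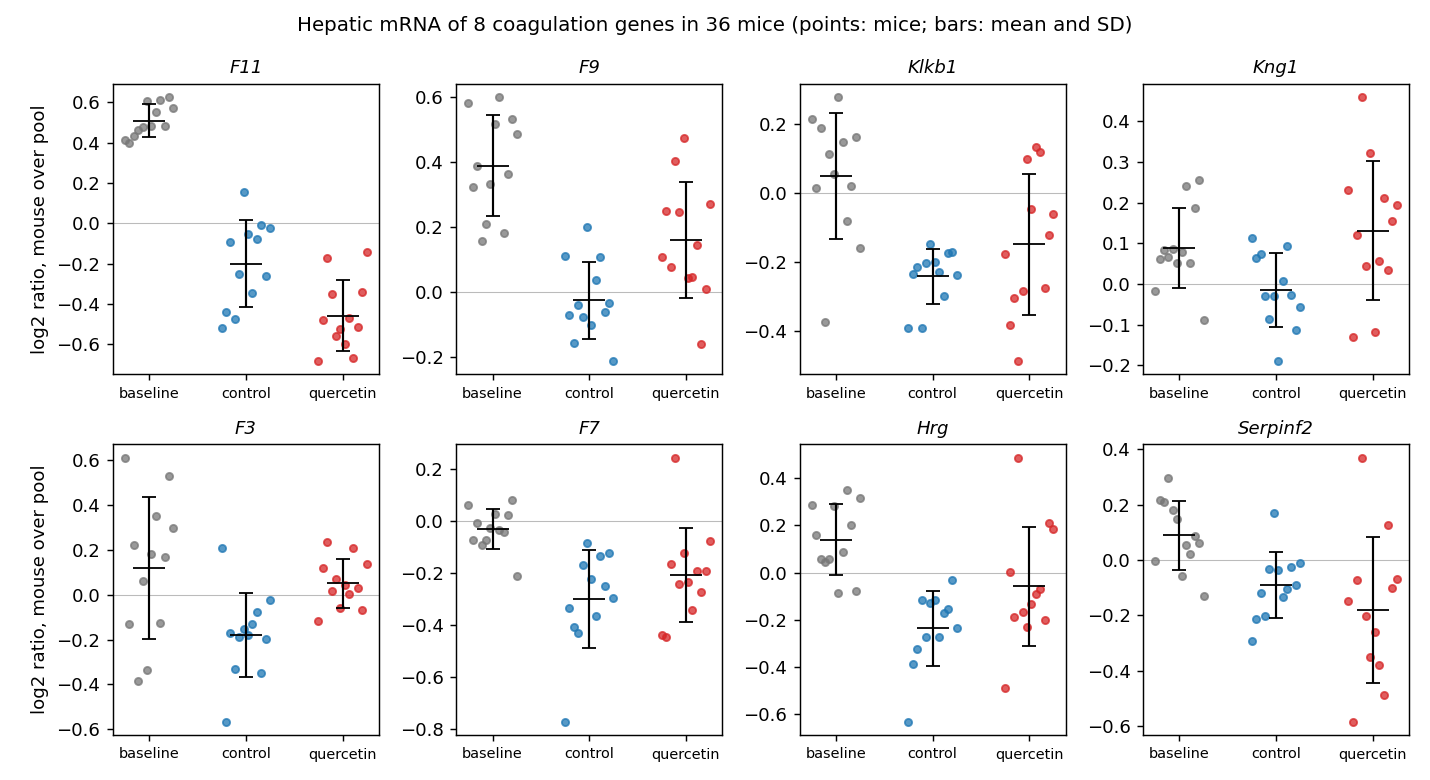
Log2 ratio of each mouse over the pool (y axis) for F11, F9, Klkb1, Kng1, F3, F7, Hrg and Serpinf2 in the baseline, control and quercetin groups (12 points each), with mean and SD as black bars. In F11 all baseline points lie above all others; the highest quercetin point of Kng1, F7, Hrg and Serpinf2 is quercetin replicate 4.

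Tissue factor, the receptor that starts the extrinsic pathway by binding factor VIIa, is encoded by F3, with its probe at chr3:121726440-121726499 (mm8). The F3 log2 ratio ran from -0.57 to 0.21 (median -0.18) in the control group and from -0.12 to 0.23 (median 0.04) in the quercetin group. The ranges overlapped, although the values of 12 of 12 quercetin mice exceeded the median of the controls and the quercetin mean was higher on 9 of 9 slides. The difference was 0.23 ± 0.06 (standard error, n = 12 per group), a fold of 1.17, with an adjusted p of 0.0339 (limma). The second F3 probe gave 0.17 (adjusted p = 0.159). The signal was modest, at 5.71 times background in Cy5, and well above background on all 36 arrays. Of the endothelial markers, 9 of 12 had a higher mean with quercetin, at a median difference of 0.05, as had 44.6% of all genes. Their mean log2 ratio was -0.09 to 0.13 in control and -0.07 to 0.22 in quercetin mice. Of the 12, 1 passed on the higher side, beside 2.06% of all genes, namely Pecam1 at 0.23 (adjusted p = 0.00897, limma). In other lists, 3 of 9 stellate cell, 3 of 9 hepatocyte and 7 of 10 Kupffer cell markers had a higher mean. The part of these cell types in the F3 difference was not tested.

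The F3 call depended on single mice and on the processing. The adjusted p was 0.0502 to 0.0621 after leaving out control replicate 2, 4, 10 or 11, or quercetin replicate 2, 3, 9 or 12, with differences of 0.20 to 0.23. It stayed under 0.05 without quercetin replicate 4 (0.0456) and without control replicate 5 (0.0414). The call was also lost with all groups in one fit (adjusted p = 0.149), slide as a block (0.0675), the replicate block (0.0761), median centring (0.486), scale normalization (0.0739), Cy5 alone (0.13), no filter on dim probes (0.0525), the mean of the F3 probes (0.0569), the methods' t-test (0.0501) and Arntl as a covariate (0.699). Over all 39 alternatives, the difference was 0.17 to 0.35.

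The other members of the extrinsic and common branch did not pass. F7 (factor VII, the partner of tissue factor) differed by 0.09 and F5 (factor V, the cofactor of prothrombin activation) by 0.11. F2 (prothrombin) differed by -0.08 and F10 (factor X, which cleaves prothrombin) by -0.04. In F7 the highest of the 36 mice was quercetin replicate 4 at 0.24, and the other quercetin mice were between -0.45 and -0.08.

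Among the anticoagulants, none of 9 members passed, and the differences lay between -0.13 and 0.09 with a median of -0.06. Serpinc1 (antithrombin) differed by -0.12 (95% confidence interval -0.26 to 0.02), whereas its second probe gave 0.0047. Serpind1 (heparin cofactor II) differed by -0.08, Proc (protein C) by -0.05 and Pros1 (protein S, its cofactor) by 0.09, with -0.0063 by the second Pros1 probe. Serping1, the inhibitor of C1 and of kallikrein, differed by 0.03. The endothelial members Procr and Thbd, which together activate protein C, each differed by -0.06, with -0.032 for Thbd without quercetin replicate 2. Tfpi, the inhibitor of tissue factor, differed by 0.07 with the single expressed probe of 5, and Tfpi2 by -0.13.

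Of the 5 expressed fibrinolytic members none passed. Hrg encodes histidine-rich glycoprotein, which binds plasminogen, heparin and fibrinogen. Its log2 ratio ran from -0.09 to 0.35 (median 0.12) in the baseline group, from -0.63 to -0.03 (median -0.20) in the control group and from -0.49 to 0.49 (median -0.11) in the quercetin group. The highest quercetin value was again that of quercetin replicate 4. The quercetin group was 0.18 higher than the control group (95% confidence interval 0.01 to 0.35; adjusted p = 0.261, limma), and 0.13 higher without quercetin replicate 4 (adjusted p = 0.385). Serpinf2 (alpha-2-antiplasmin, the inhibitor of plasmin) differed by -0.09, Cpb2 (the carboxypeptidase that removes plasminogen binding sites from fibrin) by -0.06, Plat (tissue plasminogen activator) by -0.05 and Plg (plasminogen) by 0.01. Without control replicate 5, Plat differed by -0.011 and Plg by -0.012. Without quercetin replicate 2, Serpinf2 differed by -0.052 and Plg by 0.026. Plau (urokinase) and its receptor Plaur had no expressed probe. The Plau probe was well above background in Cy5 on 1 baseline, 4 control and 1 quercetin array. That of Plaur was so on all 36 arrays, at 2.70 times background in Cy5, but it missed the limit in Cy3.

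Von Willebrand factor (Vwf, the carrier of factor VIII) differed by 0.03, with -0.05 by its second probe. Ggcx (the carboxylase that uses vitamin K) differed by -0.03, or -0.0075 without control replicate 5, and Vkorc1 (the reductase that recycles vitamin K and the target of warfarin) by -0.01 (95% confidence interval -0.10 to 0.08), with -0.027 without quercetin replicate 2 and 0.0030 without control replicate 5.

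Against the baseline group, most members had a lower mean in both groups killed at 12 weeks. In the control group 24 of 32 did, with a median of -0.09 against 0.01 over all genes, of which 46.5% were lower. In the quercetin group 26 of 32 did, with a median of -0.09 against 0.0040 over all genes, of which 48.6% were lower. Both comparisons use the same 12 baseline mice. The direction of the counts depends on the scaling. With median centring of each array in place of loess, the median of all genes moved to 0.14 in the control group, and 8 of 32 members were lower than baseline, although 23 of 32 were below that median. In the quercetin group median centring gave 16 lower members, and 18 below a median of 0.05 over all genes.

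Since a difference from baseline was behind the choice of the set, the number of members past the limma threshold is no test of it. It was 10 of 32 in the control group beside a background of 24.5% of genes (13.4% higher and 11.1% lower), and 7 in the quercetin group beside 17.5% (8.88% higher and 8.61% lower). These backgrounds are 3181 and 2271 of 12990 genes, and they moved with the setting too. For quercetin mice the number was 11 without replicate 4, beside 2395 genes, and 5 without replicate 2, beside 2077. For control mice it was 8 without replicate 5, beside 3073 genes. With median centring it was 2 for control mice, beside 2524 genes, and 1 for quercetin mice, beside only 258.

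F11 had the widest gap of the 32 members from baseline. Its mean was 0.51 ± 0.08 (SD, n = 12) in the baseline, -0.20 ± 0.21 (SD, n = 12) in the control and -0.46 ± 0.18 (SD, n = 12) in the quercetin group. The control group was 0.71 log2 units below baseline, a fold of 0.61, and the quercetin group 0.97, a fold of 0.51. By the brightest probe of each gene, F11 showed no overlap with baseline in either comparison and every other member overlapped, and absence of overlap held for 0.454% and 0.285% of all genes. The second F9 probe also showed no overlap between control and baseline mice. F11 was lower than baseline on 9 of 9 slides, by 0.29 to 0.96 in the control and by 0.74 to 1.15 in the quercetin group. Leaving out baseline replicate 4, control replicate 5 or quercetin replicate 2 or 4 gave values of -0.71 for the control and -0.98 to -0.97 for the quercetin group. With median centring the gaps were -0.54 and -0.85.

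Next in the control group came F9 at -0.41, Hrg at -0.38, F3 at -0.30, Klkb1 at -0.29 and F7 at -0.27, all 12 control mice lying below the baseline median for F9, Hrg, Klkb1 and F7. In the quercetin group these genes were at -0.23, -0.20, -0.07, -0.20 and -0.18. By branch, 6 of 6 contact and intrinsic members were lower in the control group (median -0.20) and 5 of 6 in the quercetin group (-0.12). The fibrinolytic members were 4 of 5 (-0.14) and 5 of 5 lower (-0.20), and fibrinogen with F13b 3 of 4 (-0.11) and 4 of 4 (-0.13). The extrinsic and common branch was 4 of 5 lower in both groups (-0.04 and -0.07). The anticoagulants were 6 of 9 (-0.05) and 7 of 9 lower (-0.08). Of Vwf, Ggcx and Vkorc1, 1 of 3 was lower in both groups (medians 0.08 and 0.10). Vkorc1 was higher than baseline in both groups, by 0.12 and 0.11, on 8 of 9 and 9 of 9 slides.

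Markers of cell types also had different means in these groups. Of 3 expressed red cell genes, the globins Hba-a1 and Hbb-bt were 0.85 and 0.99 above baseline in the control group, and Alas2, the erythroid enzyme of heme synthesis, was at -0.19. Of the Kupffer cell markers 10 of 10 had a higher mean, with a median of 0.24, and their mean was -1.07 to 0.73 over the baseline and -0.35 to 0.51 over the control mice. Of the cholangiocyte markers 4 of 4 had a higher mean, with a median of 0.34. Of 9 hepatocyte markers 5 had a lower mean, with a median of -0.04 and with Cyp2e1 at -0.44 and Cps1 at -0.38, and their mean was 0.00 to 0.32 over the baseline and -0.08 to 0.30 over the control mice. Of 15 acute-phase genes 14 had a lower mean, with a median of -0.23. In the quercetin group against baseline, 7 of 9 hepatocyte markers (median -0.09) and 10 of 15 acute-phase genes (-0.18) had a lower mean. There, 10 of 10 Kupffer cell markers (median 0.26) and 3 of 4 cholangiocyte markers (0.05) had a higher mean. The part of these genes in the member differences was not tested.

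**Figure D3:**
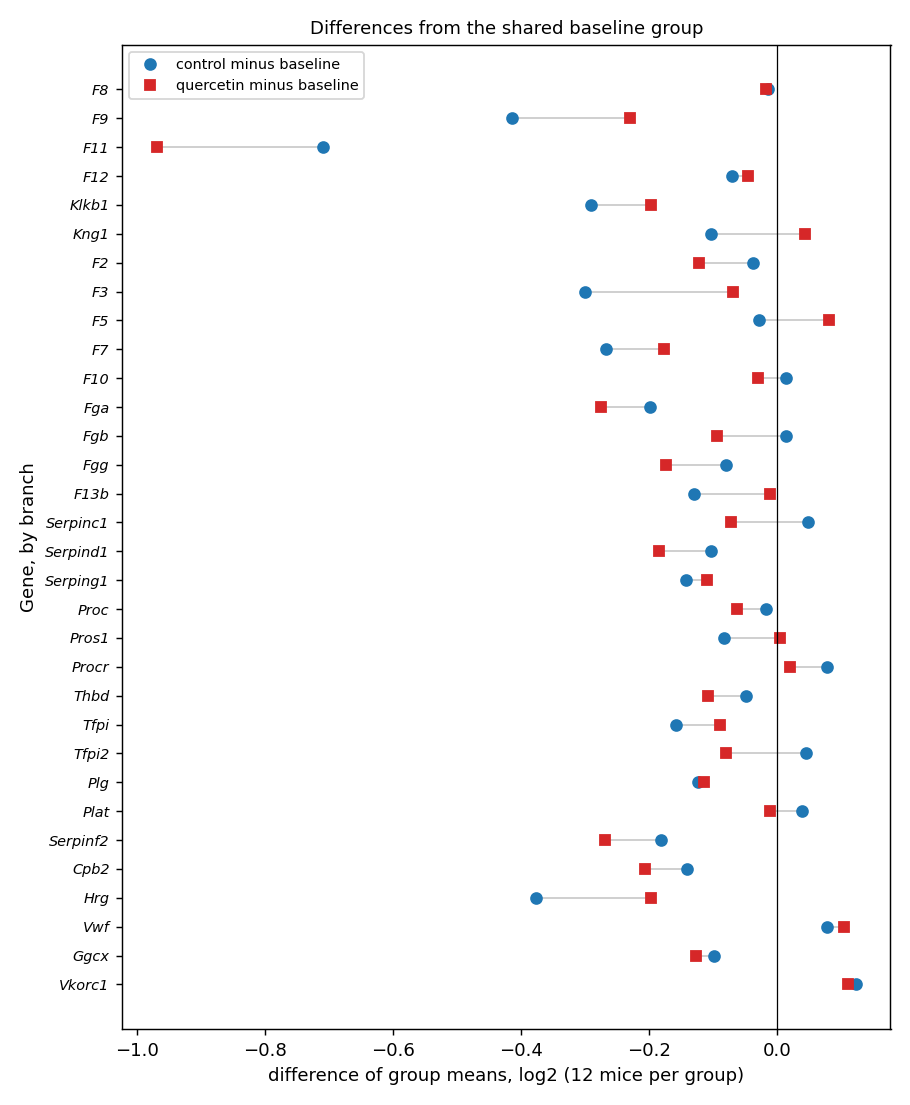
Difference of group means from the baseline group (x axis, log2) for the control group (circles) and the quercetin group (squares), 12 mice per group, for the 32 members in branch order (y axis). Both use the same baseline mice; F11 stands at -0.71 and -0.97, and the other members lie between -0.41 and 0.12.

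Fibrinogen is a hexamer of paired alpha, beta and gamma chains, encoded by Fga, Fgb and Fgg, which lie next to each other on chromosome 3 in the order Fgb, Fga, Fgg. The RefSeq windows of 250 bases before each start (GRCm38.p6) are shown because all 3 genes were highest in 1 mouse, quercetin replicate 4. Capitals mark CTGGGAA, the core of the type II interleukin-6 response element of acute-phase genes, searched on both strands.
Fga, chr3:83025903-83026152, plus strand: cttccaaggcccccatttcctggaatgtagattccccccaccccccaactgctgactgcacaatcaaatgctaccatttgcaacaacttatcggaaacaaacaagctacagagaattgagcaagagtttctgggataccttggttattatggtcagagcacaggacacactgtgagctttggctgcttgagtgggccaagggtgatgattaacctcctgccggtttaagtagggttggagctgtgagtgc
Fgb, chr3:83049864-83050113, minus strand: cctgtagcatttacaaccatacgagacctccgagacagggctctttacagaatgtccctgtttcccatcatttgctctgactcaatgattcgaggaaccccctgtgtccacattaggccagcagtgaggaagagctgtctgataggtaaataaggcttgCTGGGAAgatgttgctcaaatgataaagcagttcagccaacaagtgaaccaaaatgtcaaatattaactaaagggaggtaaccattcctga
Fgg, chr3:83007474-83007723, plus strand: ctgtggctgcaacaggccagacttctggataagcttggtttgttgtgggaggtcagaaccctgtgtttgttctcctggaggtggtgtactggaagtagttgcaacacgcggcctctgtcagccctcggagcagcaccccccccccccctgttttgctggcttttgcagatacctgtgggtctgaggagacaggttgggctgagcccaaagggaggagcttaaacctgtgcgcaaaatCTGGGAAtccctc

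CTGGGAA was present in the windows of Fgb, 91 bases before the start, and Fgg, 13 bases before it, and not in that of Fga. It was present in 9.1% of all 32851 windows and in those of 5 of the 26 members that have one: F9, Fgb, Fgg, Tfpi and Tfpi2. TTGCNNAA, a C/EBP motif, was in the windows of Fga and Fgb, of 9 of 26 members and of 9.56% of all. Of the other motifs searched on both strands, the HNF1 motif was in 0.371% of all windows, CAAAGTCCA (HNF4) in 0.384%, TTANGTAA (D-box) in 2.06% and CACGTG (E-box) in 6.02%. None of these 4 was in a fibrinogen window. The motifs were chosen after the values had been seen, and a match is not a binding site.

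Between the quercetin and the control group, Fga differed by -0.08, Fgb by -0.11 and Fgg by -0.09, with 95% confidence intervals of -0.29 to 0.14, -0.34 to 0.12 and -0.39 to 0.20. The Fga log2 ratio ran from -0.39 to 0.02 (median -0.22) in the control and from -0.67 to 0.74 (median -0.39) in the quercetin group. The Fgb log2 ratio ran from 0.39 to 0.92 (median 0.70) and from 0.09 to 1.63 (median 0.50), and its Cy5 spot was saturated on 11 of 36 arrays, 7 of them in the control group. The Fgg log2 ratio ran from -0.24 to 1.00 (median 0.37) and from -0.06 to 1.61 (median 0.25). In all 3 genes the quercetin maximum was quercetin replicate 4. Without that mouse, the differences were -0.17 for Fga (adjusted p = 0.128, limma), -0.20 for Fgb (0.153) and -0.21 for Fgg (0.282), and none passed. Without quercetin replicate 2 they were -0.041 for Fga and -0.063 for Fgb, and without control replicate 5 the difference was -0.15 for Fgg. F13b, which encodes the carrier chain of factor XIII, the transglutaminase that crosslinks fibrin, differed by 0.12.

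Quercetin replicate 4 stood apart in other members as well. It had the highest value of the quercetin group in 10 of 32 members and the lowest in 5, while over all genes it was highest in 16.3% and lowest in 5.61%. Of all 36 mice it was the highest in Fga, Fgb, Fgg, F7, Kng1, Pros1, Serpinf2 and Hrg. Compared with the median of the other 11 quercetin mice, Fgg was 1.41 higher, Fgb 1.14 and Fga 1.13, the Fgb spot being saturated on this array. Without this mouse, the difference between quercetin and control was 0.050 for F7, 0.046 for Pros1, -0.036 for Serpind1, -0.026 for Proc, -0.14 for Serpinf2 and 0.013 for Vwf, and it changed sign to -0.0025 for Serping1, -0.0082 for Plg and 0.0025 for Vkorc1. The anticoagulant genes Serpinc1, Serpind1 and Proc and the prekallikrein gene Klkb1 were the lowest of all 36 mice, at 0.43, 0.53, 0.27 and 0.37 log2 units below that median. In this liver the fibrinogen transcripts lay above the range of the other quercetin mice, and Serpinc1, Serpind1 and Proc below it. The anticoagulant branch did not move as a whole. Pros1 and Serping1 lay above the range, at 0.59 and 0.30, and Procr, Thbd, Tfpi and Tfpi2 inside it. Of 15 expressed acute-phase genes, 14 exceeded all other quercetin mice, the exception being Cp. Saa2 was 2.06 in this mouse against -1.43 to -0.18 in the others.

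**Figure D4:**
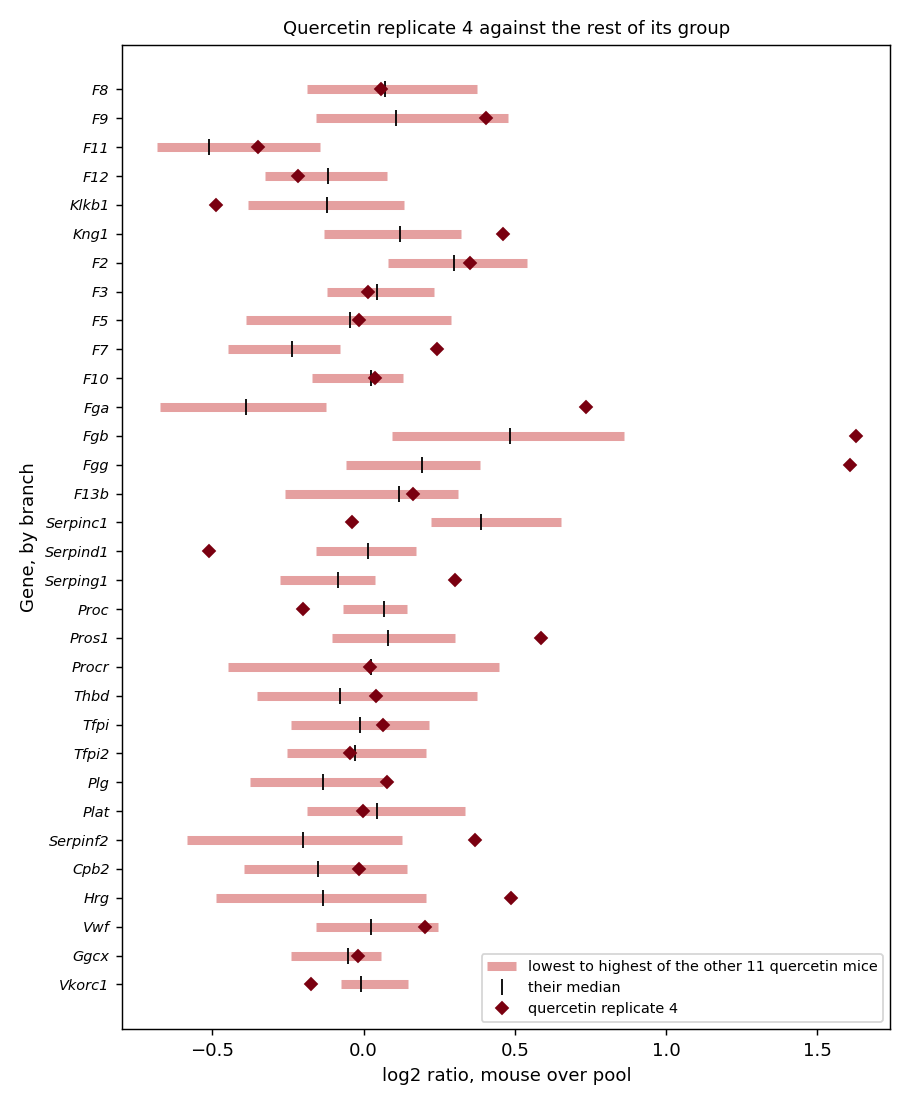
Log2 ratio (x axis) of quercetin replicate 4 (diamonds) and the range and median of the other 11 quercetin mice (bars and ticks) for the 32 members (y axis). The diamonds of Fga, Fgb and Fgg lie at 0.74, 1.63 and 1.61, right of the bars, as do those of Kng1, F7, Serping1, Pros1, Plg, Serpinf2 and Hrg. Those of Klkb1, Serpinc1, Serpind1, Proc and Vkorc1 lie left of the bars.

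Baseline replicate 4, with Saa2 at 1.93, differed from quercetin replicate 4 in its fibrinogen transcripts. Its Fga, Fgb and Fgg values of -0.14, 0.62 and 0.48 were inside the range of the other baseline mice. It was the highest baseline mouse in Procr, at 0.99 against at most 0.29 in the others, and in F12, Serpinf2 and Vwf. It was the lowest in F9, Klkb1, F3, F5, F13b and Cpb2, and over all genes it was highest in 20.7% and lowest in 15.4%. Of the 15 acute-phase genes, 6 exceeded all other baseline mice. Klkb1 was the lowest and Serpinf2 the highest of the group in both of these mice.

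Pairs of members that lie close to each other in the genome were compared across the 36 mice, as deviations from the group means, with p-values from 100000 permutations within groups, adjusted over 6 pairs. Fga and Fgb correlated with r = 0.77 (adjusted p = 0.00051; rho = 0.57, adjusted p = 0.00237), and Fgb and Fgg with r = 0.74 (adjusted p = 0.00051; rho = 0.55, adjusted p = 0.00237). Leaving out the 2 mice farthest from the median gave r = 0.60 (adjusted p = 0.00342) and 0.51 (adjusted p = 0.0039). Without quercetin replicate 4 alone, r was 0.52 and 0.48. For Fga and Fgg, r was 0.66 (adjusted p = 0.00864; rho = 0.37, adjusted p = 0.0584). This relation rested on quercetin replicate 4, since r was 0.25 without that mouse alone (adjusted p = 0.171). Without the 2 farthest mice, quercetin replicate 4 and baseline replicate 9, r was 0.29 (adjusted p = 0.125).

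Within single groups, for Fga and Fgb, r was 0.60 over the baseline, -0.18 over the control and 0.94 over the quercetin mice, and for Fgb and Fgg it was 0.61, 0.49 and 0.88. The quercetin values include quercetin replicate 4, the highest mouse in Fga, Fgb and Fgg, and r within that group was not computed without it. The difference between groups was not tested. With slide means removed as well, the r values over 36 mice were 0.78, 0.81 and 0.66. No other pair passed the test. F7 and F10, adjacent on chromosome 8, had r = -0.05 (adjusted p = 0.941), F11 and Klkb1, also adjacent on chromosome 8, had r = 0.00089 (adjusted p = 0.996), and Kng1 and Hrg, with Kng2 between them, had r = -0.06 (adjusted p = 0.941), or -0.40 without quercetin replicate 4 (adjusted p = 0.053). These values depended on the normalization within arrays, since all 6 pairs correlated with median centring.

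**Figure D5:**
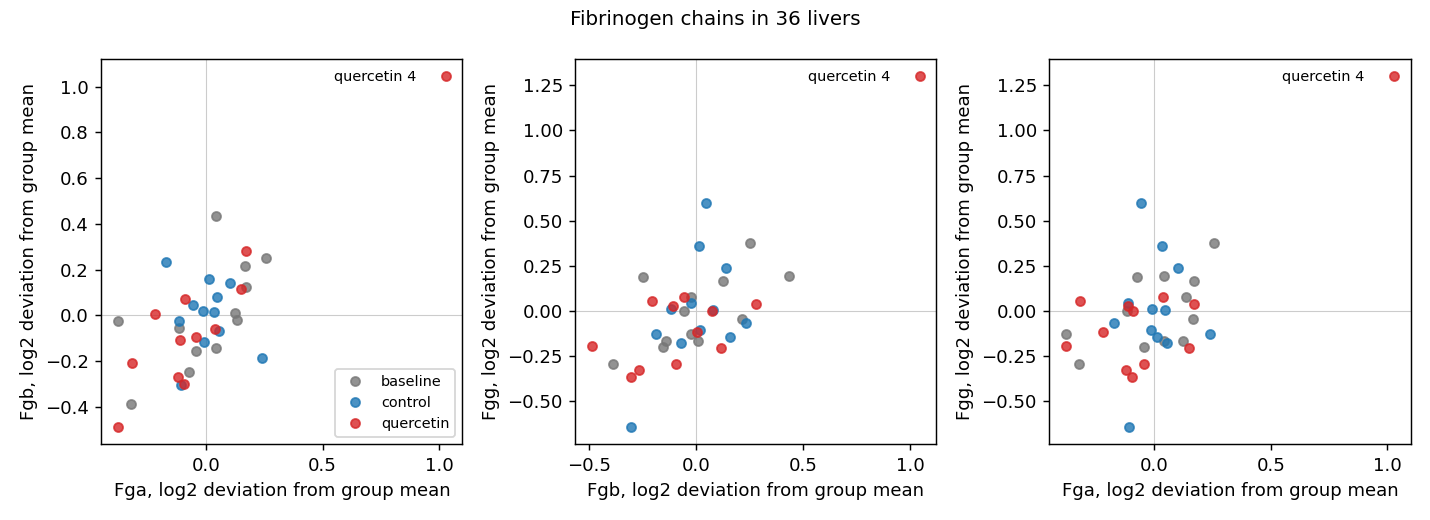
Deviation of each mouse from its group mean (log2) for Fga against Fgb, Fgb against Fgg and Fga against Fgg, with the baseline, control and quercetin mice in separate colours (36 points per panel). Quercetin replicate 4 lies at the upper right of each panel; r is 0.77, 0.74 and 0.66 with it and 0.52, 0.48 and 0.25 without it.

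Of 29 further genes of the pathway, 18 had an expressed probe. Between the quercetin and the control group 0 of these passed on the higher side, beside 2.06% of all genes, and 1 on the lower, beside 1.21%. This was F2r, the thrombin receptor PAR1, which fell by 0.37 log2 units with quercetin (adjusted p = 0.00345, limma), with 12 of 12 quercetin mice below the control median. This call was not followed under the alternative settings. Against baseline, F2r differed by 0.02 in the control and by -0.35 in the quercetin group. Among the other 17, Gas6 (a vitamin K-dependent ligand of TAM receptors) differed by -0.0051 between quercetin and control, at 0.52 above baseline in both. Vkorc1l1, a paralog of Vkorc1, was above baseline by 0.19 and 0.26. F13a1 and Adamts13 were among those with no expressed probe.

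Of 21 expressed regulators of liver genes, 6 passed on the higher and 2 on the lower side with quercetin, beside 3.26% of all genes. This list was drawn up with earlier results of these data known, so the count is no test. Nr1i3, which encodes the receptor CAR, was 0.48 higher (adjusted p = 0.000325, limma), with 12 of 12 quercetin mice above the control median. Of these 8, 6 belong to the circadian clock or its output, with Dbp at 0.90 (adjusted p = 0.00525), Tef at 0.65 (0.00214) and Arntl at -0.76 (0.00359). Cebpb, a factor of acute-phase transcription, was 0.41 higher (adjusted p = 0.0267), while 0 of 15 acute-phase genes passed. With the Arntl value of each mouse as a covariate, 0 of all 12990 genes passed, and the difference was 0.17 for F3 and -0.33 for F11. Arntl itself differed between these groups, so that fit cannot tell Arntl and the diet apart, and nothing is concluded from the loss of calls.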

How the data were processed

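Liver RNA of 36 mice was measured on 2-colour Agilent arrays. The authors deposited scanner files with the median intensity and background of each spot in Cy5 and Cy3, not normalized, made with Feature Extraction (10.5.1.1 in the submitters' processing notes). The authors also deposited normalized log2 Cy5 values of 23256 spots, with column medians of 8.96, whose centring is not given in the sources used here. These served as an alternative.

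Background was corrected with limma's normexp (offset 50), ratios were normalized by loess within each array, control and flagged spots were left out, and spots of a probe were averaged. A gene's value is that of its brightest expressed probe, and positions are those of mm8 in the files. Groups were compared with limma (lmFit, eBayes, two-sided) on the 24 arrays of each comparison, with Benjamini-Hochberg adjustment over 18196 expressed probes and a threshold of 0.05. The number of arrays limits the precision. Each of 9 slides held all 3 groups.

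The members, lists and alternatives were chosen with earlier results of these data known. The genes named were all members, and those of the lists that passed or that describe a mouse or cell type. Alternatives varied the background correction, normalization, filter, probe, samples, blocks, weights and test. Simulated data with known changes served to test the scripts. R 4.3.3, limma 3.58.1, data.table (1.17.8), Python 3.11.15 and matplotlib 3.10.9 were used.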

Additional observations from a re-analysis of the deposited data

How the results depend on the processing

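Between the quercetin and the control group 1 member passed, and under the alternatives 0 to 2 did. The count was 0 with median centring, scale normalization, the Cy5 channel alone, no filter on dim probes, slide as a block, the replicate block, the mean of all expressed probes, the methods' t-test and Arntl as a covariate, and 2 (F3 and F11) with the authors' table and with array weights. Leaving out 1 mouse at a time gave 0 to 2; this was chosen after seeing the data, as were all fits without a named mouse other than quercetin replicate 2. Over all genes the count was 424, and it was 290 with the replicate block, 178 with slide as a block, 48 with median centring, 43 with scale normalization, 146 with Cy5 alone, 699 with array weights and 0 with Arntl. Of the called genes 63% were higher with quercetin, whereas this share was 22.9% for median centring, 51.2% for scale normalization and 54.8% for Cy5 alone. Against baseline this share rose from 54.6% to 92.3% in the control and from 50.8% to 67.4% in the quercetin group with median centring. The cause was not tested.

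Members passing against baseline in the control group were 10, beside 3181 of all 12990 genes. With median centring they were 2 beside 2524, and with Cy5 alone 5 beside 1955. In the quercetin group they were 7 beside 2271, 1 beside 258 with median centring and 1 beside 371 with scale normalization. They were 3 beside 1894 of 15201 genes in the authors' table and 4 beside 1931 of 27597 without a filter. Without quercetin replicate 4 they were 11 beside 2395. The replicate block gave 9 and 5, beside 2892 and 1919 of all 12990 genes. Mice of a number share only that number: the median correlation of their deviations was -0.034 between quercetin and control mice, with 3 of 12 over 0.1. With scale normalization, quercetin minus control turned to -0.029 for Klkb1, -0.15 for F7, 1.04 for Fgb and 0.86 for Fgg, and F9 in the quercetin group against baseline to 0.0046. With Arntl it turned to -0.021 for Klkb1, -0.0074 for F7, 0.072 for Fga and 0.062 for Fgg. Serpinf2 in the control group against baseline was 0.0096 with median centring. Of 6 neighbour pairs 3 correlated, and 6 did with median centring, F7 and F10 at 0.83 and Kng1 and Hrg at 0.79. In the authors' table these pairs were at 0.15 and 0.29, with slide means removed F7 and F10 were at 0.024, with Cy5 alone Kng1 and Hrg were at 0.067, and F11 and Klkb1 were at -0.0048 without quercetin replicate 2 and at 0.049 without quercetin replicate 4. F3, Plat, Procr, Thbd and Plaur lie near the background, and Fgb near saturation, which compresses their differences.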
